A study of Mus musculus with 2 samples.

Results

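The Dlx1 and Dlx2 locus is described here through 1 window of chromosome 2, chr2:71280001-71400000 in the coordinates of the deposited files, divided into 120 bins of 1 kb out of 2539671 bins of the genome that held a read. Within it lies a block of 22 kb, chr2:71326001-71348000, which is 1 of the 27525 regions called enriched for JARID2 and contains 1 of the 2008 regions called for MTF2. The block was chosen by its JARID2 and MTF2 levels in these libraries, so those levels are a description and carry no test. It was taken to be Dlx1 and Dlx2 from its position and width. That identity was inferred and was not checked here, because no gene positions in the build of the reads were used, and no peak could be placed on one gene or the other.

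The samples were 2 ChIP-seq libraries, 1 for MTF2 and 1 for JARID2, from mouse embryonic stem (ES) cells of a 129SvJae x C57BL/6 background at passages 10 to 15, untreated as far as the labels say and grown without feeder cells for the last 2 to 3 passages. ChIP-seq recovers DNA bound to a protein with an antibody and sequences it. There was no replicate, input or control antibody, so every level is a fold over the expected reads of the same library, and a difference between the libraries is not a tested difference between the factors. The libraries held 8946204 (MTF2) and 12900993 (JARID2) distinct reads, and 3.44 and 4.25 reads were expected per 1 kb bin of chromosome 2.

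Dlx1 and Dlx2 are a pair of neighbouring homeobox genes, transcribed towards each other, whose products are transcription factors of the Distal-less family. They are known for their roles in inhibitory neurons of the developing forebrain and in the branchial arches, and in ES cells such developmental regulators are typical targets of Polycomb repression. PRC2 is the Polycomb complex that methylates histone H3 on lysine at repressed genes. MTF2, a Polycomb-like protein that binds unmethylated CpG-rich DNA, and JARID2, a Jumonji-family protein that binds DNA and PRC2, are accessory subunits that help to place the complex. In the RefSeq gene table Metap1d, a methionine aminopeptidase gene, lies before Dlx1. Sorted by start position, the antisense transcript Dlx1as comes after Dlx1 and before Dlx2, an order that does not show whether it overlaps either gene. The next protein-coding gene after Dlx2 is Itga6, which encodes an integrin subunit.

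The promoters of both genes are shown because CpG-rich DNA is what PRC2 accessory proteins are known to bind and because the block was read as covering this gene pair. The sequences are the 250 bases before each annotated start in RefSeq on GRCm38.p6, a build other than that of the reads, at chr2:71529195-71529444 on the + strand for Dlx1 and chr2:71546755-71547004 on the - strand for Dlx2. Both members were matched by symbol. Each is written 5′ to 3′ on the gene's strand, with every CG dinucleotide in capitals.
Dlx1: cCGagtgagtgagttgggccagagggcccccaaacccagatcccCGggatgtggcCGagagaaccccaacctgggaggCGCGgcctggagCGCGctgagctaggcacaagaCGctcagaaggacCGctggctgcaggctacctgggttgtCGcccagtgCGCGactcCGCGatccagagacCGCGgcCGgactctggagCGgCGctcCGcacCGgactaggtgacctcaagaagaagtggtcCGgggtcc
Dlx2: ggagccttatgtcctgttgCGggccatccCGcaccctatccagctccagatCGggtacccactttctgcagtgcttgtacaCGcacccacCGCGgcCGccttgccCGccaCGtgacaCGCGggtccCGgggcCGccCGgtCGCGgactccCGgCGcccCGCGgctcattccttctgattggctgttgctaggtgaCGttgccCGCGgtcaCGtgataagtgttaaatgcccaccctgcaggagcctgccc
The Dlx1 stretch held 22 CG dinucleotides at 68% G and C, and the Dlx2 stretch 24 at 66.4%. Across the 32851 promoters of the table, counted over the same 250 bases, the median was 6 CG (quartiles 2 and 16) and 52.4% G and C, and 92.1% held at least 1 CG. Only 13.3% of the promoters had more CG than Dlx1 and 10.7% more than Dlx2. The homeodomain motif TAATTA, which reads the same on both strands and does not overlap CG, was in neither stretch and in 4.84% of all promoters. These counts describe the sequences and say nothing of where in the block the promoters lie.

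JARID2 and MTF2 were both raised across the block, and both were below 2-fold to either side of it. The block held 4927 JARID2 reads, 52.7-fold over expected (exact 95% Poisson interval 51.2 to 54.2), and 557 MTF2 reads, 7.36-fold (6.76 to 8.001). In the 46 kb to its left, JARID2 was at 0.952-fold (0.820 to 1.099) and MTF2 at 1.14-fold (0.984 to 1.32). In the 52 kb to its right, JARID2 was at 1.84-fold (1.66 to 2.03) and MTF2 at 1.08-fold (0.933 to 1.24). Reads divided by the depth of each library gave 6.13 JARID2 reads per MTF2 read in the block (exact 95% Clopper-Pearson interval 5.62 to 6.71), against 0.713 (0.578 to 0.879) in the left flank and 1.46 (1.23 to 1.74) in the right flank. This ratio was scaled by all distinct reads of each library and not by its expected reads per bin. It therefore differs from the quotient of the folds. The intervals cover counting error only, and the expected count is treated as known. They are too narrow where bins vary more than Poisson counts do. In the left and right flanks the variance of the bin reads over their mean was 1.81 and 1.72 in MTF2. In JARID2 it was 1.44 and 7.78, and 2 bins of the right flank were called. All of these are above the level of a Poisson count.

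A bin was called enriched at a Benjamini-Hochberg adjusted Poisson p of at most 0.001 over all bins, at least 5-fold over expected and with at most 90% of its reads on 1 strand. Of the 22 bins of the block, 21 were called in JARID2, where 1.88% of all bins of the genome were called, and 16 in MTF2, where 0.193% were called. At an adjusted p of at most 1e-05 and 10-fold, 19 were called in JARID2 and only 5 in MTF2. Since the block was chosen on these levels, nothing is read from that contrast. There were 15 bins called in both libraries, 6 in JARID2 alone, 1 in MTF2 alone and 0 in neither. Of the 98 flanking bins, 2 (2.04%) were called in JARID2 and 0 in MTF2.

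**Figure D1:**
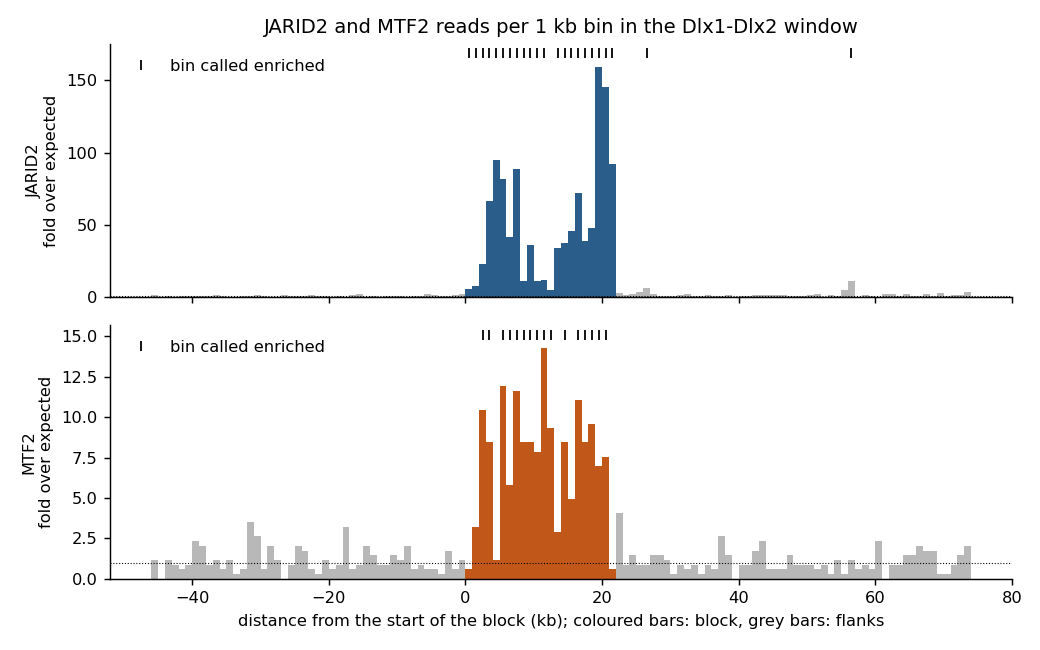
Fold over expected per 1 kb bin (vertical axes, JARID2 above and MTF2 below) against the distance in kb from the start of the block, with the block coloured, the flanks grey and a tick above each bin called enriched. JARID2 reaches 159-fold near the right end of the block, MTF2 reaches 14.3-fold near its middle, and outside the block only 2 bins, both of JARID2, are called.

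The left edge was gradual. In the last bin before the block JARID2 had 11 reads (2.59-fold), and in the first bin of the block it had 25 (5.88-fold), just over the 5-fold threshold. The next bins held 34, 99, 282 and 404 JARID2 reads, so the level climbed over 5 kb to 95.1-fold (86.0 to 105). MTF2 held 2, 11, 36 and 29 reads in the first 4 bins, and its called region began only at 71328001.

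The right edge was abrupt. The last bin of the block, from 71347001, held 390 JARID2 reads (91.8-fold, 82.9 to 101), and the first bin outside held 14 (3.29-fold, 1.80 to 5.53). In steps of 200 bp, JARID2 went from 178 reads at 71347001 to 71, 80, 48 and 13, and then to 5 in the first step outside the block. Among the 228 JARID2 regions of at least 10 kb with a called MTF2 bin, the median last bin stood at 7.77-fold (quartiles 6.14 and 14.9) and that of this block was the highest of all. Taking the higher of the 2 end bins of each region, the block ranked 3 of 228 against a median of 12.9-fold. MTF2 had only 2 reads in the last bin (0.582-fold, 0.0704 to 2.10), against 26 in the bin before it and 14 (4.07-fold) in the first bin outside, the highest MTF2 bin of either flank.

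Cut at its bins of 50-fold or more, JARID2 formed a pair of arms with a lower middle, while MTF2 was raised in the middle too. The middle was the longest run of bins below 50-fold between such bins. These limits were set after the values were seen, so much of the JARID2 contrast follows from them, and its intervals do not cover that choice. Middle bins with 155, 144, 160 and 195 reads were near the median bin of the block (172), and those with 49, 48, 52 and 21 were lower. The left arm of 5 kb from 71329001 held 282, 404, 347, 178 and 376 JARID2 reads per bin, 74.7-fold in all (71.1 to 78.5). The right arm of 6 kb from 71342001 held 305, 166, 203, 676, 618 and 390 reads, 92.5-fold in all (88.8 to 96.3). Between them, the 8 bins from 71334001 held 49, 155, 48, 52, 21, 144, 160 and 195 reads, 24.2-fold in all (22.6 to 25.95). The bins with 178 and 166 reads, 1 in each arm, were below the highest bin of the middle (195), and the other bins of both arms were above it.

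MTF2 was close to level over the same 3 parts. It was 7.79-fold (6.53 to 9.23) in the left arm, 8.07-fold (7.04 to 9.20) in the middle and 7.37-fold (6.24 to 8.64) in the right arm, and these intervals overlap. By bin, MTF2 held 29, 4, 41, 20 and 40 reads in the left arm. It held 29, 29, 27, 49, 32, 10, 29 and 17 in the middle. It held 38, 29, 33, 24, 26 and 2 in the right arm. The low values within the arms, 4 and 2 reads, fell in bins where JARID2 was above 90-fold. The bins highest in JARID2, from 71345001 (159-fold) and 71346001 (145-fold), held 24 and 26 MTF2 reads (6.98 and 7.56-fold). Both were called in both libraries.

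The 5 highest bins of each library are listed here, and nothing is read from how many they shared. Unrelated sets of 5 among 22 bins would share few bins as well. Within MTF2 alone, the 5 highest bins of the forward and of the reverse reads shared 3, and in JARID2 4. The 5 highest JARID2 bins held 676, 618, 404, 390 and 376 reads and started at 71345001, 71346001, 71330001, 71347001 and 71333001. The 5 highest MTF2 bins held 49, 41, 40, 38 and 36 reads and started at 71337001, 71331001, 71333001, 71342001 and 71328001. The 1 bin in both sets was that from 71333001, with JARID2 at 88.5-fold (79.8 to 97.9) and MTF2 at 11.6-fold (8.31 to 15.8). The 5 highest bins took 50.01% of the JARID2 reads of the block and 36.6% of its MTF2 reads. JARID2's highest bin was 3.93 times its median bin and MTF2's 1.69 times.

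The bin with the most MTF2 reads lay in the JARID2 low, but its lead over other MTF2 bins is not resolved. The MTF2 intervals of the bins from 71331001 (11.9-fold, 8.56 to 16.2) and 71333001 (11.6-fold, 8.31 to 15.8) overlap its own. Both of these lie in the left arm, with JARID2 at 81.7 and 88.5-fold. In the bin from 71337001, MTF2 was at 14.3-fold (10.5 to 18.8) and JARID2 at 12.2-fold (9.14 to 16.0). In the next bin, from 71338001, JARID2 fell just short of the threshold with 21 reads (4.94-fold, 3.06 to 7.55), the lowest of the block, while MTF2 had 32 (9.31-fold, 6.37 to 13.1). Over the 5 bins from 71334001 to 71339000, the lowest run of 5 in JARID2, there were 166 MTF2 reads (9.66-fold, 8.24 to 11.2) and 325 JARID2 reads (15.3-fold, 13.7 to 17.1). The depth-scaled ratio there was 1.36 (1.123 to 1.65). Because the run was picked for its few JARID2 reads, its JARID2 level and ratio are low by that choice, which the intervals do not cover.

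The opposite held in 1 bin of each arm. In the bin from 71330001, JARID2 was at 95.1-fold with 404 reads and MTF2 at 1.16-fold (0.317 to 2.98) with 4. In the last bin the numbers were 390 and 2. Per bin, the depth-scaled ratio ran from 0.455 (0.249 to 0.814) in the bin from 71338001 through a median of 5.72 to 70.0 (27.1 to 258) in that from 71330001 and 135 (37.2 to 1121) in that from 71347001. Of the 8 bins of the block with JARID2 at 50-fold or more, 2 had MTF2 at most at 1.2-fold. Over the genome that was so in 554 of 2856 such bins (19.4%, 17.96 to 20.9), the 2 of the block included.

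**Figure D2:**
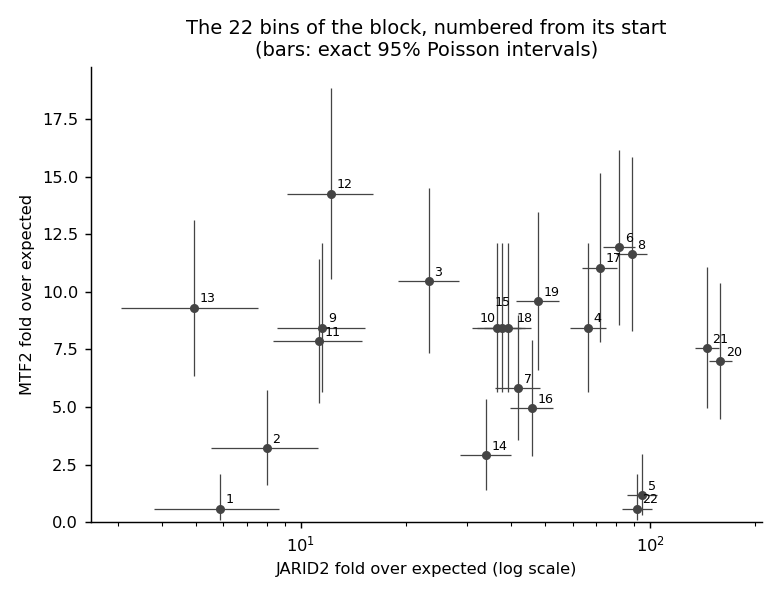
MTF2 fold over expected (vertical axis) against JARID2 fold over expected (horizontal axis, log scale) for the 22 bins of the block, numbered from its start, with exact 95% Poisson intervals as bars. Bins 5 and 22 have JARID2 above 90-fold and MTF2 below 1.2-fold, while bins 20 and 21, higher still in JARID2, have MTF2 at 6.98 and 7.56-fold. Bin 12 has the highest MTF2 level at a JARID2 level of 12.2-fold, and no common trend is visible.

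Over the 22 bins, Pearson's r of the log2 reads (with 1 added) was 0.05 and Spearman's rho was -0.0239. These describe neighbouring bins of the same pair of libraries, which are not independent. The median rho within the 228 wide regions called in both was 0.265 (quartiles -0.00266 and 0.497), and the block ranked 179 from the highest.

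In steps of 200 bp the block resolved into 9 JARID2 maxima, each at least 20-fold and the highest step within 1 kb on either side. They held 127 reads at 71331001 (149-fold), 145 at 71333201 (171-fold), 55 at 71335801 (64.7-fold) and 19 at 71337401 (22.4-fold). Further on they held 53 at 71339601 (62.4-fold), 116 at 71342201 (136-fold), 100 at 71343801 (118-fold), 166 at 71345201 (195-fold) and 178 at 71347001 (209-fold). The 2 highest thus lay in the last 3 kb of the block, and the lowest in the middle.

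MTF2 also had 9 maxima in the block, at a threshold of 10-fold, and in these steps none of them fell within 200 bp of a JARID2 maximum. That count depended on where the steps began: with steps moved by 100 bp, 4 of 10 JARID2 maxima had an MTF2 maximum within 200 bp. It was 1 of 10 in steps of 100 bp, 1 of 8 with 5′ ends not moved, and 0 of 10 at thresholds of 10-fold (JARID2) and 5-fold (MTF2), where the block again had 9 MTF2 maxima and the window 16. They held 11 reads at 71329001, 17 at 71331401, 16 at 71333601, 11 at 71335401 and 16 at 71337801. To the right they held 9 at 71340801, 20 at 71342801, 12 at 71344201 and 12 at 71345801. Their levels ran from 13.1-fold (5.98 to 24.8) at 71340801 to 29.1-fold (17.8 to 44.9) at 71342801, and with so few reads a step their order is not resolved. Of the 9 JARID2 maxima, 5 had an MTF2 maximum 400 bp away, 2 at 600 bp and 2 at 1200 bp.

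**Figure D3:**
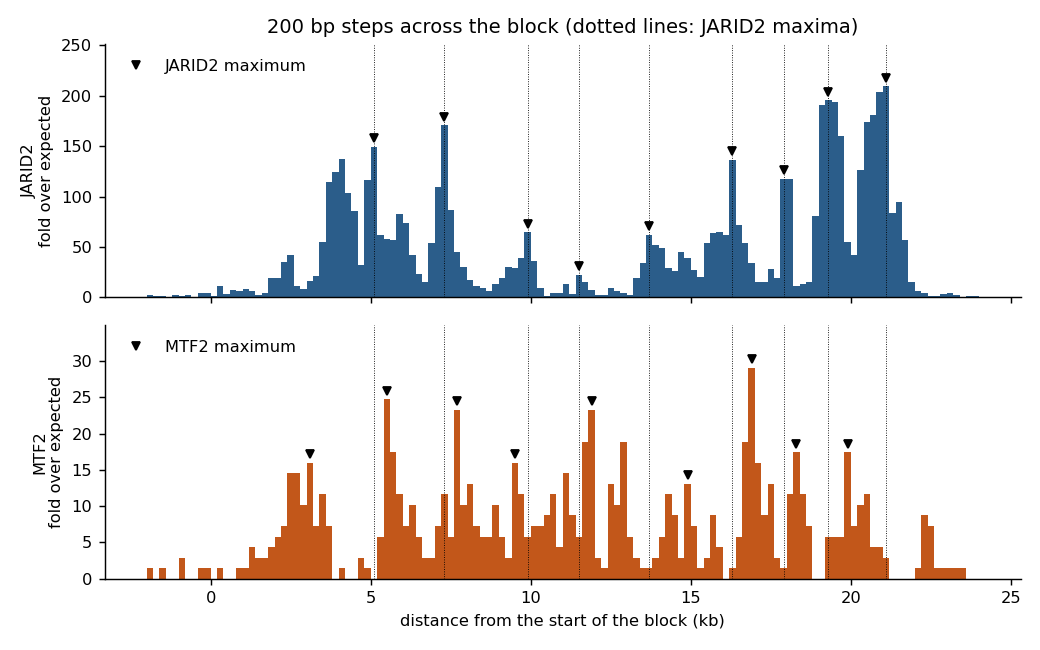
Fold over expected in 200 bp steps (vertical axes, JARID2 above and MTF2 below) against the distance in kb from the start of the block, with triangles on the maxima of each library and dotted lines at the 9 JARID2 maxima in both panels. In these steps the MTF2 maxima sit beside the dotted lines, 400 bp or more away; with steps moved by 100 bp, 4 of 10 lie within 200 bp.

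With 5′ ends moved as stated, MTF2 was lower at the JARID2 maxima than 400 and 600 bp after them in coordinate order. Set against both sides together, MTF2 was lower by an amount that varied with the processing, and with 5′ ends not moved the intervals overlapped. Summed over the 9 maxima, it had 25 reads at the maximum itself (4.04-fold, 2.61 to 5.96), 26 at 200 bp before it in coordinate order (4.20-fold) and 44 at 200 bp after it (7.11-fold). At 400 bp there were 42 reads before (6.79-fold, 4.89 to 9.17) and 87 after (14.1-fold, 11.3 to 17.3), and at 600 bp 36 before (5.82-fold) and 75 after (12.1-fold, 9.53 to 15.2). The interval at the maximum does not reach those at 400 and 600 bp after it and overlaps those before it. JARID2 itself fell from 125-fold at the maximum to 55.8 and 54.3-fold at 400 bp before and after, a fall fixed by how maxima were picked.

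Over 400 and 600 bp on both sides together, MTF2 was at 9.69-fold (8.51 to 11.002), so the level at the maxima was 0.417 of it. That quotient was 0.533 in steps of 100 bp and 0.590 with steps moved by 100 bp. With 5′ ends not moved it was 0.949, and the intervals at the maxima (4.74 to 9.27-fold) and away from them (6.02 to 8.29-fold) overlapped. These settings were applied after the data were seen.

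With 5′ ends moved as stated and steps of 200 bp, low quotients were also found in other regions. In the 91 wide regions called in both libraries that held at least 5 JARID2 maxima, this block included, the MTF2 level at the maxima was divided by that at 400 and 600 bp on both sides. The quotient was 0.417 in the block, the eighth lowest, with a median of 0.686 (quartiles 0.546 and 1.01), and it was below 1 in 67 of the 91. No JARID2 maximum had an MTF2 maximum within 200 bp in 38 of the 91. Over all 217 other wide regions with a JARID2 maximum, 168 of 1102 maxima did (15.2%, 13.2 to 17.5). This comparison was added after the values of the block were seen, and it was made at that setting alone. Whether the values of the other regions depend on the setting, as those of the block did, was not tested.

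**Figure D4:**
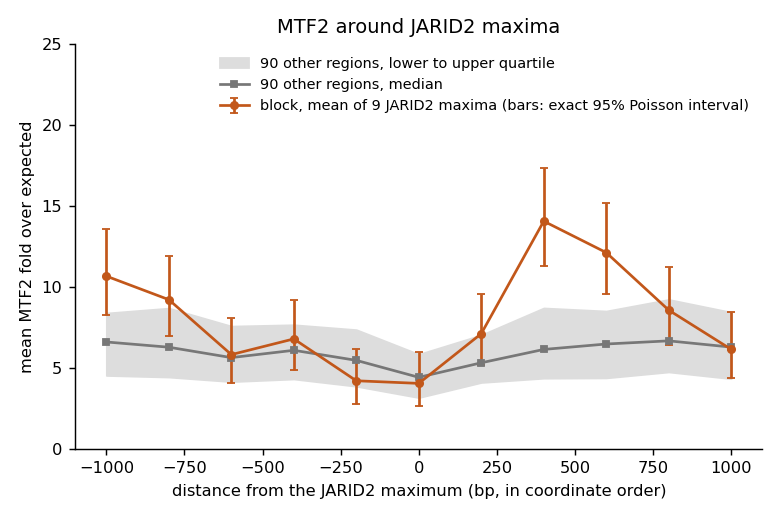
Mean MTF2 fold over expected (vertical axis) at set distances in bp from the JARID2 maxima (horizontal axis) for the 9 maxima of the block, with exact 95% Poisson intervals, and the median and quartiles over the 90 other wide regions with at least 5 maxima. With 5′ ends moved as stated, MTF2 in the block is 4.04-fold at the maximum and 14.1-fold at 400 bp after it, and the median of the other regions has a shallower low of 4.41-fold at the maximum.

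MTF2 had no read in 14 of the 110 steps of the block, and JARID2 had reads in all of them. The longest run without MTF2 was chr2:71347201-71348000, 800 bp at the right end with 212 JARID2 reads (62.4-fold, 54.3 to 71.3). For a stretch set beforehand, a count of 0 over 800 bp would allow an MTF2 level of up to 1.09-fold, taking 3 reads as the limit. These runs were picked for holding no MTF2 read, so limits of this kind are too low. The whole bin from 71347001 held 2 MTF2 reads (0.582-fold, 0.0704 to 2.10). Of the runs of 400 bp, those from 71330201 and 71344801 held 161 and 231 JARID2 reads (94.7 and 136-fold), with an MTF2 limit of 2.18-fold each. Single steps from 71329801, 71331001 and 71342001 held 106, 127 and 53 JARID2 reads and no MTF2 read. The others lay in the first bin, where JARID2 was low too. With 0.688 MTF2 reads expected per step, an empty single step allows up to 4.36-fold by that limit and shows little. The exact 95% Poisson interval used elsewhere is wider and reaches 5.36-fold for such a step.

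Outside the block 2 bins were called in JARID2, and MTF2 was within counting error of its expected level in both. At chr2:71352001-71353000, 4 kb beyond the right edge, JARID2 had 29 reads (6.82-fold, 4.57 to 9.80) and MTF2 had 3 (0.872-fold, 0.180 to 2.55). Its neighbours, from 71351001 and 71353001, held 17 (4.001-fold, 2.33 to 6.41) and 11 (2.59-fold) JARID2 reads and were not called. At chr2:71382001-71383000 JARID2 had 49 reads (11.5-fold, 8.53 to 15.2), of which 40 lay in the 200 bp from 71382001 (47.1-fold, 33.6 to 64.1), and MTF2 had 4 (1.16-fold, 0.317 to 2.98). The bin before the latter, from 71381001, held 21 JARID2 reads (4.94-fold), just below the threshold. MTF2 passed 10-fold outside the block in a single 200 bp step, from 71294001, with 7 reads. No gene is assigned to any of these places.

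Forward and reverse reads, which are separate molecules of 1 library and not replicates, were counted apart as a description. Forward reads made up 51.2% of JARID2 (49.8 to 52.6) and 51.5% of MTF2 (47.3 to 55.7) in the block. Over the 22 bins Spearman's rho between strands was 0.947 in JARID2 and 0.642 in MTF2, and over the 110 steps of 200 bp 0.863 and 0.626. The highest JARID2 bin, from 71345001, was the same on both strands, whereas the highest MTF2 bin was that from 71333001 on the forward and that from 71337001 on the reverse strand. With 557 reads against 4927, the MTF2 profile rested on far fewer reads per bin.

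Repeat reads differed between the libraries at the locus. The block had 1.28 deposited reads per distinct JARID2 read, with at most 9 copies of one, against 1.121 in the whole library and 1.09 and 1.11 in the flanks. For MTF2 the values were 1.05 in the block, with at most 3 copies, 1.23 in the whole library, and 1.07 and 1.04 in the flanks. Of the deposited MTF2 reads in the block, 34.3% had score 0 (30.5 to 38.3), against 39.3% in the whole library, 38.3% (31.5 to 45.6) in the left and 33.3% (26.9 to 40.3) in the right flank. What that score means is not stated in the labels or files, and its part in the MTF2 level was measured only as an alternative setting.

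Among the 228 wide regions called in both libraries, the block stood towards the top in both. These regions are not all alike. That at chr9:3000001-3039000, for example, had JARID2 at 203-fold, MTF2 at 327-fold and a depth-scaled ratio of 0.546. With no input, such regions cannot be told apart from places where reads collect for other reasons. That limit applies to every rank and median over the wide regions given here. It ranked 23 in JARID2 fold (median 31.9, quartiles 23.0 and 42.5), 34 in MTF2 fold (median 5.42, quartiles 4.09 and 6.67) and 31 in the share of bins called in MTF2, 72.7% against a median of 46.7%. Its depth-scaled ratio of 6.13 ranked 88 and lay between the quartiles of 3.25 and 7.40. Its highest bins, 159-fold in JARID2 and 14.3-fold in MTF2, ranked 28 and 63.

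The regions most like the block in both folds and in width, by Euclidean distance of their log2 values, had lower JARID2 folds. The nearest was another region of 22 kb, chr17:85516001-85538000, with JARID2 at 44.2-fold (42.9 to 45.5), MTF2 at 7.28-fold (6.67 to 7.94) and 17 bins called in MTF2. Its high end was the first bin, at 54.2-fold JARID2, and its last stood at 5.70-fold. Next came chr7:131331001-131349000, with JARID2 at 45.3-fold and MTF2 at 7.69-fold, and chr5:139789001-139809000, with 45.8 and 5.94-fold. The last of the 5 were chr2:38166001-38183000, at 48.5 and 6.88-fold, and chr13:40738001-40756000, at 46.1 and 6.04-fold. Their depth-scaled ratios ran from 5.48 (4.97 to 6.06) to 6.93 (6.26 to 7.70), a likeness that the choice by both folds fixed.

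The 6 other regions of 22 kb ran from 5.91-fold JARID2 and 5.45-fold MTF2 on chromosome 5 from 14938001 to 44.2 and 7.28-fold on chromosome 17. In JARID2 all 6 lay below the block, and in MTF2 the region on chromosome X from 120300001, at 19.1-fold, lay above it. The depth-scaled ratio was 0.975, 0.810 and 1.22 in those on chromosomes 5, X and 1. In the others it ran from 5.66 to 6.67, against 6.13 in the block. The 4 widest regions, of 63 to 88 kb, had JARID2 from 24.8 to 152-fold and MTF2 from 3.52 to 21.8-fold, a range that spans the block. Their ratios ran from 1.30 to 37.8.

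**Figure D5:**
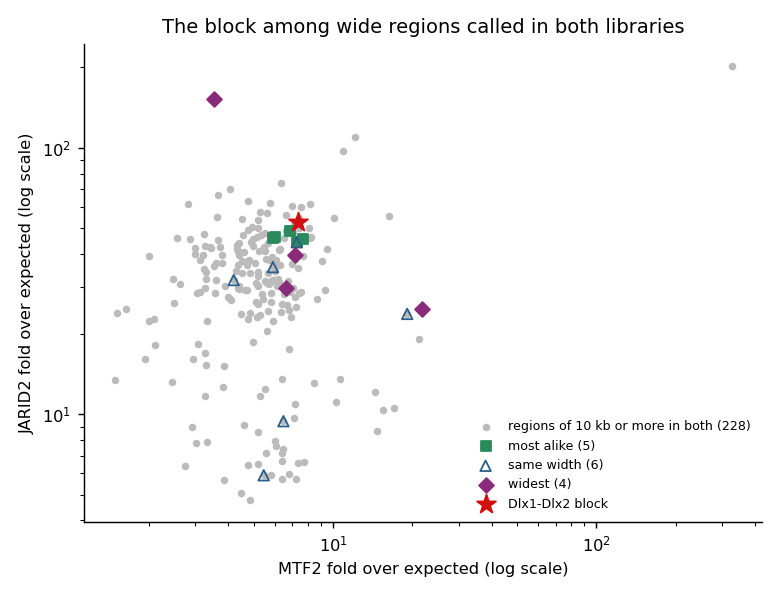
JARID2 fold against MTF2 fold over expected (both axes log scale) for the 228 JARID2 regions of at least 10 kb with a called MTF2 bin, with the Dlx1-Dlx2 block as a star and the 5 most alike, the 6 of the same width and the 4 widest regions marked. The block lies at 7.36-fold MTF2 and 52.7-fold JARID2, above most of the cloud in both.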

How the data were processed

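Each deposited file lists aligned reads as intervals, 10986401 of 52 bp for MTF2 and 14465269 of 36 bp for JARID2, with a deposited score per read (0 to 10 in MTF2, always 1000 in JARID2). No label or file header names the aligner, build or filters. Per the labels' protocols, libraries had 15 PCR cycles. Each 5′ end was counted once per strand and moved 70 bp (MTF2) or 100 bp (JARID2) downstream, in bins of 1 kb and steps of 200 bp. Expected counts are the mean of the chromosome 2 bins with a read in either library, up to the 99th percentile. Called bins were merged across gaps of up to 1 kb. Folds have exact Poisson and shares and ratios exact Clopper-Pearson intervals at 95% (SciPy 1.17.1). The caller was tested on simulated data. The named bins were the 5 highest of each library, the lowest, the ends and their neighbours, called flanking bins and all maxima. The compared regions were the 5 most alike, those of equal width and the 4 widest. The locus, lists and rules were chosen with earlier results of these data known. Other Dlx genes were not analysed here. Alternatives covered repeat reads, shifts, expected counts, scores, thresholds and step size.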

Additional observations from a re-analysis of the deposited data

How the results depend on the processing

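Over 9 results, 48 values under alternatives were computed, of which 34 stayed within 1.5 times (counts and the quotient of MTF2 at JARID2 maxima) or the counting interval (levels and ratio), 14 moved and 0 reversed. With all deposited reads kept, JARID2 in the block was 63.7-fold and the ratio 8.20. With the median bin as the background, the folds were 8.44 (MTF2) and 74.7 (JARID2), and with the flanks as the background 6.63 and 37.1. The flanks were used whole, including the 2 bins called in JARID2. With MTF2 reads of score above 0 alone, MTF2 was 8.31-fold and the ratio 5.44. At an adjusted p of 1e-05 and 10-fold, 5 bins were called in MTF2. At 10-fold in JARID2 and 5-fold in MTF2, MTF2 had 16 maxima in the window instead of 10. The offset of MTF2 from JARID2 maxima varied, with 0 of 9, 1 of 10, 4 of 10, 0 of 10 and 1 of 8 JARID2 maxima within 200 bp of an MTF2 maximum over 5 settings, and a quotient from 0.417 to 0.949. Why each value moved was not tested. No paired analysis was possible because there is 1 library per factor. MTF2 depth, 0.688 reads expected per 200 bp, limits what its fine profile can show. The JARID2 level is against its own library, and no input was used.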
